A study of Homo sapiens with 4 samples.

Results

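The 6 genes examined encode the enzymes that add or remove the phosphate on the alpha subunit of translation initiation factor eIF2. They were taken from the deposited tables by symbol, as the 4 eIF2alpha kinases EIF2AK1, EIF2AK2, EIF2AK3 and EIF2AK4 and the 2 regulatory subunits of protein phosphatase 1 (PP1), PPP1R15A and PPP1R15B. All 6 of 6 were present among 22494 features and all 6 passed the filter on low counts. Poly(A) RNA had been sequenced from HEC-1-A cells and RL-95-2 cells, established lines that both derive from human endometrial cancers. Each line had been transfected with mimics of tRF-20-S998LO9D, a transfer RNA fragment, or a negative control of mimics. This gave 4 libraries in 4 groups, with 1 library per line and transfection. No untransfected cells were analysed here, so both groups of a line had gone through transfection.

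eIF2 brings the initiator transfer RNA to the ribosome. When its alpha subunit is phosphorylated, eIF2 blocks its own exchange factor eIF2B. General initiation then slows while the mRNA of the transcription factor ATF4 is translated more, a program called the integrated stress response. The kinases sense different stresses, and PP1 held by PPP1R15A or PPP1R15B removes the phosphate. PPP1R15A is itself a gene induced in this response, so it closes a feedback loop, whereas PPP1R15B is made constitutively. Transcript levels do not measure the activity of any of these enzymes.

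Promoters are shown for both phosphatase subunits, of which one varied most and the other little, for EIF2AK3, which was lower in the RL-95-2 mimic library as both were, and for EIF2AK2, whose window holds an interferon-type element. RefSeq promoter windows (GRCh38.p14, 250 bases before to 50 bases after the start site) were found for 5 of 6 members, not for EIF2AK1. In PPP1R15A (chr19:48872171-48872470, plus strand) the capitals mark a cyclic AMP response element (CRE, TGACGTCA) and a TATA box (TATAAA). In PPP1R15B (chr1:204411768-204412067, minus strand) they mark a C/EBP-ATF response element (CARE, TGATGNAA). In EIF2AK2 (chr2:37156931-37157230, minus strand) they mark a match to the interferon-stimulated response element (ISRE, which reads GAAA, any 2 bases, GAAA), and in EIF2AK3 (chr2:88627415-88627714, minus strand) 4 CCAAT boxes on either strand.
PPP1R15A: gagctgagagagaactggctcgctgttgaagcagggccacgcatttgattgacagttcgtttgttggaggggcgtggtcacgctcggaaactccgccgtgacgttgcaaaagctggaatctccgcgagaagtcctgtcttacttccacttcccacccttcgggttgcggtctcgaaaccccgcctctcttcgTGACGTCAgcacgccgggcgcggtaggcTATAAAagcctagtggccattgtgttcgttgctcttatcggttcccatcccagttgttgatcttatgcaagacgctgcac
PPP1R15B: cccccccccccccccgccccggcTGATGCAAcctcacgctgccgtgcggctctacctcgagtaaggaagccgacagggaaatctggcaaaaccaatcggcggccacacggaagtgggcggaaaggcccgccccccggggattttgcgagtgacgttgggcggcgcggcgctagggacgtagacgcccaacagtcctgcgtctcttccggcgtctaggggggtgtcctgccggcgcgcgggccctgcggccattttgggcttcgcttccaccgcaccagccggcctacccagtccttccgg
EIF2AK2: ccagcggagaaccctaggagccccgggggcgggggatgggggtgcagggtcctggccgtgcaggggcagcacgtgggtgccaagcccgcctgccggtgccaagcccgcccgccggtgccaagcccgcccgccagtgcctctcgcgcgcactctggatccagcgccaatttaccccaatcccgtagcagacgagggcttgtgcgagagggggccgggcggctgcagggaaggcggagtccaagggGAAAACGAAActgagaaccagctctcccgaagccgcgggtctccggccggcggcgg
EIF2AK3: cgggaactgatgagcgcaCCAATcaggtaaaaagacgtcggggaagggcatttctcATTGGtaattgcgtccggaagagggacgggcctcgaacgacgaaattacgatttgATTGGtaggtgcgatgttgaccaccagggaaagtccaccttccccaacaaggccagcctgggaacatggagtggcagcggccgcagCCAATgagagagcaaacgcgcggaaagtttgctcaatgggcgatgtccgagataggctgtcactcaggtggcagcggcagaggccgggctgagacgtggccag

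In PPP1R15A the CRE spanned bases -58 to -51 and the TATA box bases -30 to -25, counted from the start site at 1. The CARE of PPP1R15B lay at bases -227 to -220, and the ISRE match of EIF2AK2 spanned the start site, from base -6 to base 4. Among 35116 promoter windows of the same length, 1.85% held the CRE, 11.5% the TATA box, 3.62% the CARE, 3.57% the ISRE match and 34.6% a CCAAT box, each on either strand. PPP1R15A was the single member window with a CRE or a TATA box. Like EIF2AK3, it held no GC box (GGGCGG), a motif found in 45.0% of all windows. EIF2AK2, EIF2AK4 and PPP1R15B held 4 GC boxes each. CCAAT boxes, in capitals for EIF2AK3 alone, were also in EIF2AK2 (from bases -87 and -77) and in PPP1R15B (from base -159). The endoplasmic reticulum stress element (CCAAT, any 9 bases, CCACG, in 0.0769% of windows) and the AP-1 site (TGACTCA, in 4.95%) were in none of the 5. GC content was 56.0% in PPP1R15A, 57.7% in EIF2AK3, 66.0% in EIF2AK4, 69.7% in PPP1R15B and 72.3% in EIF2AK2, against a median of 58.7% over all windows. CCAAT is the first part of the endoplasmic reticulum stress element, and no other motif searched contains another. A match describes the letters in a window and not the binding of a factor.

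**Figure D1:**
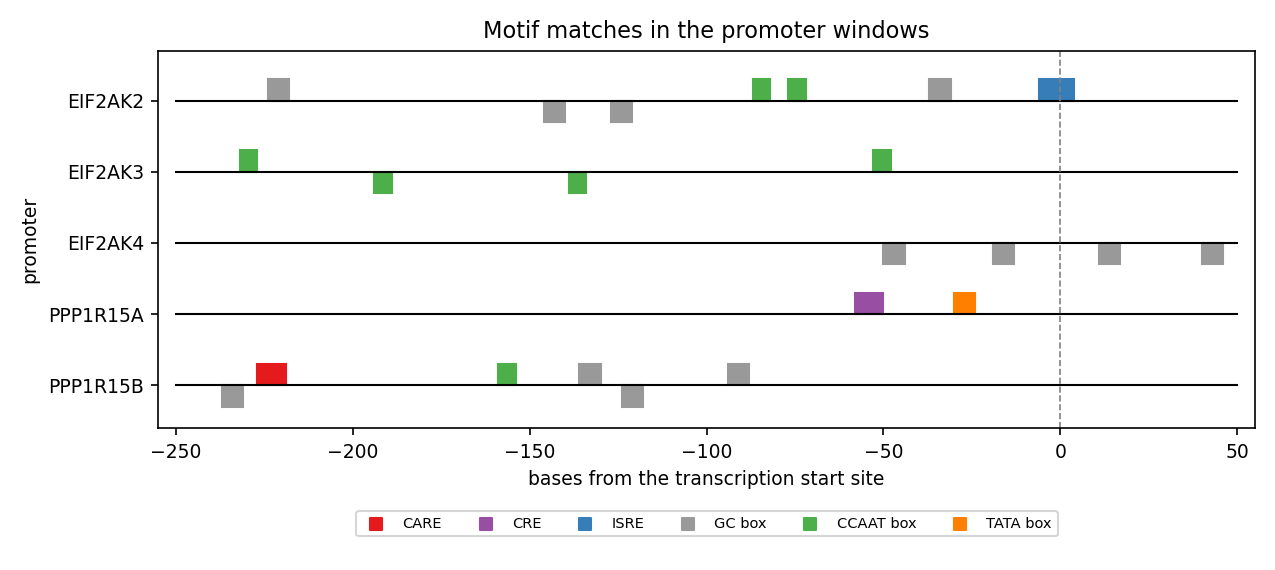
Positions of motif matches in the promoter windows of 5 members, in bases from the start site (dashed line), with boxes above a line for the gene's strand and below it for the opposite strand. PPP1R15A carries the CRE at -58 and the TATA box at -30, and EIF2AK2 the ISRE match across the start site.

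Totals ranged from 33575882 to 46220053 counts per library. Members had from 799 counts (EIF2AK3, HEC-1-A control) to 43472 counts (PPP1R15A, HEC-1-A mimic). Of 7 epithelial markers, all 7 were measured in both lines (averaging 1 CPM or more, that is counts scaled for library depth). PAX8, a transcription factor of the uterine epithelium, stood between 57.6 and 80.3 FPKM (fragments scaled for depth and transcript length), whereas SOX17 and PGR were listed at 0 and ESR1 reached at most 0.129 FPKM. The summed level of 8 blood and immune markers was 0.412 to 0.639 FPKM in HEC-1-A and 3.21 to 3.74 FPKM in RL-95-2. Most of the RL-95-2 sum was CD68, at 3.46 FPKM with the control and 2.57 FPKM with the mimic. For 7 stromal markers the sums were 0.548 to 1.48 and 11.2 to 12.5 FPKM, led in RL-95-2 by COL1A1. Of 5 endothelial markers, CDH5 alone was measured, at 3.11 and 6.11 FPKM in RL-95-2. Their part in the results was not tested, and in bulk RNA fewer cells with a transcript and less of it per cell cannot be told apart.

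PPP1R15A, the stress-induced phosphatase subunit also called GADD34, had the widest range of the 6 members. Its level was 257 FPKM in the HEC-1-A control, 355 FPKM in the HEC-1-A mimic, and, in RL-95-2, 88.2 FPKM with the control and 13.7 FPKM with the mimic. Both HEC-1-A libraries lay above both RL-95-2 libraries, and the highest level was 25.8 times the lowest. In HEC-1-A it was among the most abundant mRNAs, at rank 164 of 17016 detected features in the control and rank 110 of 17640 in the mimic library. In RL-95-2 it ranked 562 of 17145 with the control and 5216 of 17466 with the mimic.

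PPP1R15B, the constitutive subunit also called CReP, had a highest level of 1.41 times its lowest. It stood at 33.0 and 34.4 FPKM in the HEC-1-A control and mimic libraries, and at 38.4 and 27.3 FPKM in those of RL-95-2. The ranges of the lines overlapped, and the RL-95-2 mimic library was the lowest. Per length, PPP1R15A exceeded PPP1R15B by 7.80 times in the HEC-1-A control, 10.3 times in the HEC-1-A mimic and 2.30 times in the RL-95-2 control library. In the RL-95-2 mimic library the order was turned, with a PPP1R15A to PPP1R15B ratio of 0.503. PPP1R15A thus made up 88.6%, 91.2%, 69.7% and 33.5% of the summed FPKM of both subunits in these libraries.

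EIF2AK1 (HRI), the kinase that heme holds inactive and that also relays mitochondrial stress, had the highest FPKM of the kinases in every library. Its level was 32.9 and 31.0 FPKM in the HEC-1-A control and mimic libraries and 36.9 and 38.8 FPKM in those of RL-95-2. It had the narrowest range of the members, the highest level being 1.26 times the lowest. By CPM, which is not divided by length, EIF2AK2 was slightly above EIF2AK1 in the RL-95-2 mimic library (184.6 against 182.3 CPM).

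EIF2AK2 (PKR), the kinase activated by double-stranded RNA and itself interferon-inducible, stood at 11.9 and 10.2 FPKM in the HEC-1-A control and mimic libraries. In RL-95-2 it stood at 13.7 FPKM with the control and 17.7 FPKM with the mimic. RL-95-2 was above HEC-1-A in both transfections, and the mimic library was the lower one in HEC-1-A and the higher one in RL-95-2.

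EIF2AK3 (PERK), the kinase in the endoplasmic reticulum membrane that senses unfolded proteins, had the lowest FPKM of the members in every library. It stood at 4.60 and 4.90 FPKM in the HEC-1-A control and mimic libraries and at 12.3 and 7.99 FPKM in those of RL-95-2. The lines did not overlap, and in RL-95-2 the mimic library was the lower.

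EIF2AK4 (GCN2), the kinase that binds uncharged transfer RNA when amino acids run short, stood at 8.95 and 8.94 FPKM in the HEC-1-A control and mimic libraries. In RL-95-2 the levels were 18.7 and 24.9 FPKM. Both RL-95-2 libraries were above both HEC-1-A libraries, and the RL-95-2 mimic library was the highest.

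**Figure D2:**
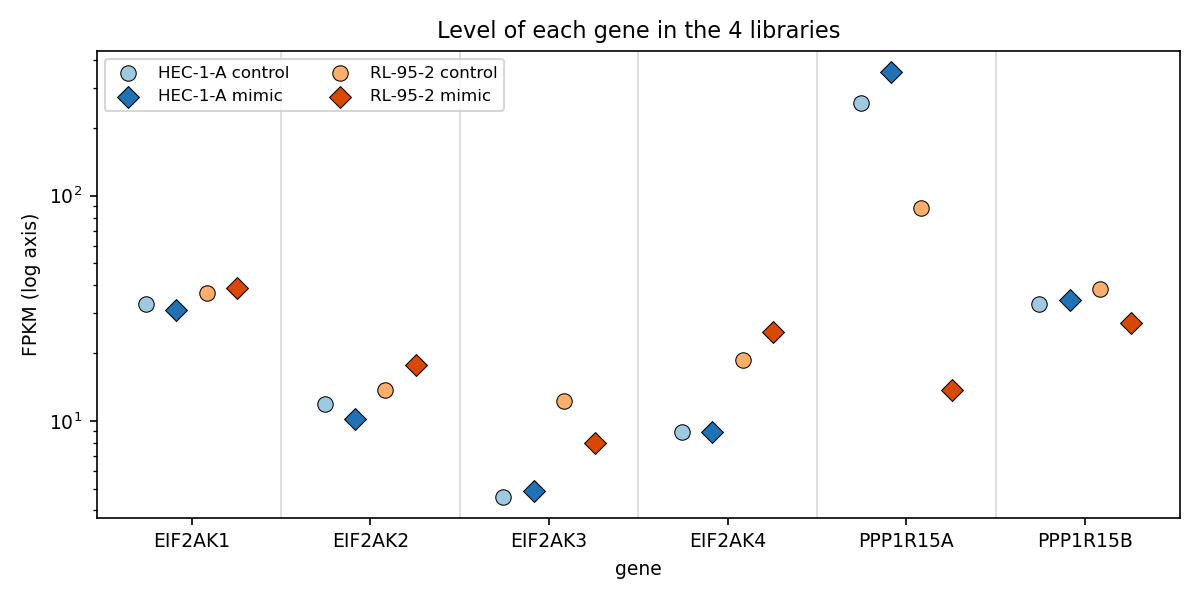
FPKM (log axis) of the 6 genes in the 4 libraries, circles for control and diamonds for mimic libraries. PPP1R15A spans 13.7 to 355 FPKM, while EIF2AK1 stays between 31.0 and 38.8 FPKM.

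By mean FPKM in HEC-1-A the order was PPP1R15A, PPP1R15B, EIF2AK1, EIF2AK2, EIF2AK4 and EIF2AK3. No neighbours in it overlapped between libraries, although the gap between PPP1R15B (lowest 33.0 FPKM) and EIF2AK1 (highest 32.9 FPKM) was slight. In RL-95-2 the order was PPP1R15A, EIF2AK1, PPP1R15B, EIF2AK4, EIF2AK2 and EIF2AK3. There the ranges of PPP1R15A and EIF2AK1 overlapped, as did those of EIF2AK1 and PPP1R15B, so these neighbours were not separated. The range of PPP1R15A also overlapped those of PPP1R15B, EIF2AK4 and EIF2AK2, so its place above them was not separated either. PPP1R15A led in the RL-95-2 control library, whereas in the RL-95-2 mimic library every other member except EIF2AK3 was above it. By FPKM, EIF2AK2 and EIF2AK4 stood in the opposite order in the 2 lines. By CPM, which is not divided by length, EIF2AK2 was above EIF2AK4 in every library. In RL-95-2 they had 152.1 and 116.4 CPM with the control and 184.6 and 142.8 CPM with the mimic.

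Among kinase transcripts EIF2AK1 made up 56.4% and 56.3% of the summed FPKM in the HEC-1-A control and mimic libraries, and 45.2% and 43.4% in those of RL-95-2. The EIF2AK4 share was 15.4% and 16.3% in HEC-1-A, against 22.9% and 27.9% in RL-95-2. EIF2AK3 made up 7.90% and 8.91% in HEC-1-A. In RL-95-2 it made up 15.1% with the control and 8.94% with the mimic. The RL-95-2 control library thus had the largest EIF2AK3 share of the 4. The summed FPKM of both phosphatase subunits was 4.98 times that of the 4 kinases in the HEC-1-A control library. It was 7.08 times with the mimic in HEC-1-A, whereas in RL-95-2 it was 1.55 times with the control and 0.459 times with the mimic. Levels per length rest on the lengths behind the authors' FPKM. The ratio of CPM by library total to FPKM gives an estimate of these lengths. It came to 2643 to 2676 bases for PPP1R15A and 10826 to 11228 bases for EIF2AK2, where the longest GENCODE transcripts have 2378 and 10042 bases. For every member the ratio exceeded the longest transcript, and it also depends on the depth used for the FPKM.

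**Figure D3:**
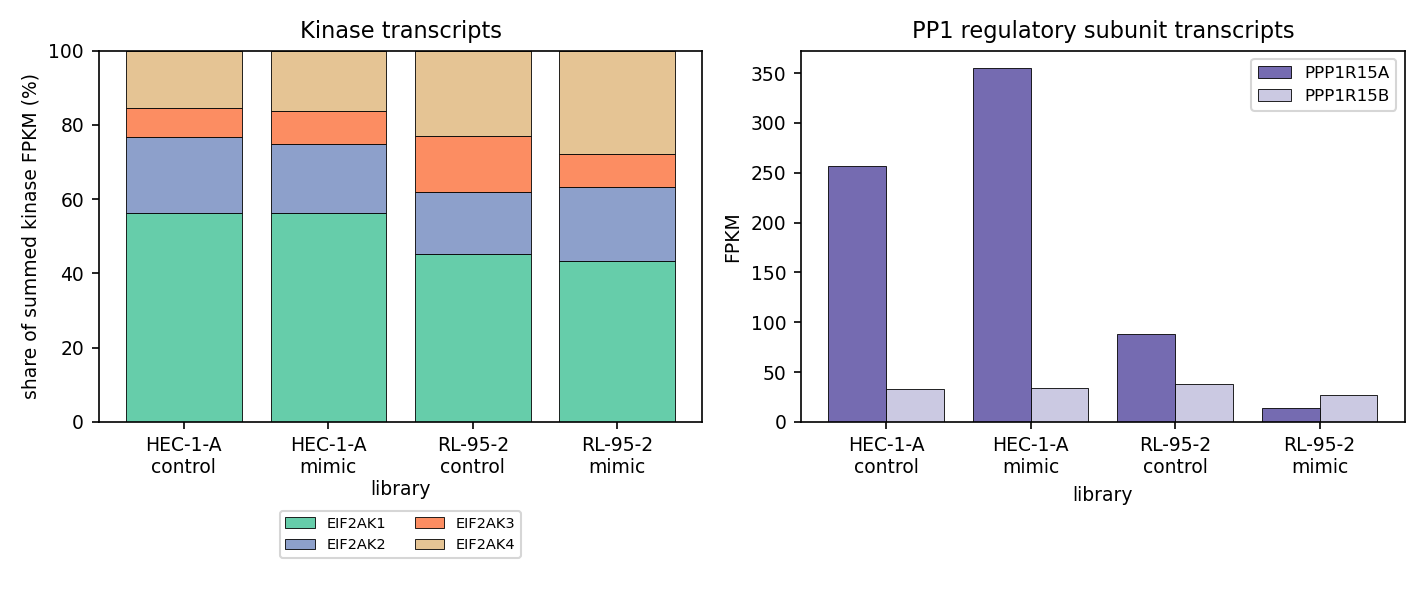
Left, share (%) of each kinase in the summed kinase FPKM per library. Right, FPKM of PPP1R15A and PPP1R15B per library, where PPP1R15A exceeds PPP1R15B in 3 libraries and lies below it in the RL-95-2 mimic library (13.7 against 27.3 FPKM).

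The lines were compared with edgeR's quasi-likelihood test on the counts, with Benjamini-Hochberg adjustment over 15957 features and the mimic and control libraries as the 2 libraries of a line. At an FDR of 0.05, 3 of 6 members passed, where 35.1% of all features did, so a share of this size is no result about the members. EIF2AK4 was higher in RL-95-2 (log2 fold change 1.23, SE 0.23, adjusted p = 0.00828), as was EIF2AK3 (1.01, SE 0.29, adjusted p = 0.0374). PPP1R15A was lower in RL-95-2 (log2 fold change -3.17, SE 0.83, adjusted p = 0.0273). Higher calls made up 18.3% and lower calls 16.7% of all features. EIF2AK2 (0.42, SE 0.25, adjusted p = 0.238), EIF2AK1 (0.20, SE 0.23, adjusted p = 0.557) and PPP1R15B (-0.11, SE 0.28, adjusted p = 0.790) did not pass.

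The size of the line difference depended on which transfection was read. Between control libraries, the log2 ratio of RL-95-2 over HEC-1-A was -1.51 for PPP1R15A (95% counting interval -1.55 to -1.48), and between mimic libraries it was -4.83 (-4.91 to -4.76). For EIF2AK3 it was 1.46 (1.34 to 1.57) between control and 0.57 (0.47 to 0.68) between mimic libraries. EIF2AK4 had 1.10 (1.02 to 1.18) and 1.36 (1.29 to 1.43). PPP1R15B had 0.25 between control and -0.47 between mimic libraries, so its direction between lines was not the same. EIF2AK1 (0.20 and 0.19) and EIF2AK2 (0.18 and 0.65) were above 0 in both.

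In RL-95-2, 1 library stood against 1, so differences have no replicate check and no p-value is given. Values are log2 ratios of CPM scaled by TMM, with an exact 95% interval that covers counting error only. PPP1R15A went from 242 CPM in the control library to 34.1 CPM in the mimic library, 7.09-fold lower (log2 ratio -2.83, interval -2.90 to -2.75). It ranked 61 from the lowest ratio among 13151 measured genes. It was the single member of 6 at least 2-fold apart, where 11.2% of measured genes were, 6.52% lower and 4.71% higher. With scaling by library total the split of those genes turned from 619 higher and 857 lower to 875 higher and 685 lower.

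The other members differed by less than 2-fold in RL-95-2. EIF2AK3 had 66.2 CPM in the control and 39.1 CPM in the mimic library (-0.76, interval -0.84 to -0.67). PPP1R15B was at 232 and 150.3 CPM (-0.63, interval -0.67 to -0.58). Both lay below 0, although 80.2% of measured genes had a smaller ratio in size than EIF2AK3 and 72.9% than PPP1R15B, so neither was at the extremes. EIF2AK4 was at 116 and 143 CPM (0.29, interval 0.24 to 0.35) and EIF2AK2 at 152 and 185 CPM (0.28, interval 0.23 to 0.33). With this scaling EIF2AK4 and EIF2AK2 were the 2 members above 0, although only 41.25% and 39.05% of measured genes had a smaller ratio in size. EIF2AK1 was at 191 and 182 CPM (-0.066, interval -0.11 to -0.021), and it turned to 0.063 with scaling by library total, which moved the median of all genes in RL-95-2 from 0.0012 to 0.13. Some epithelial markers differed between the same libraries. The summed FPKM of the 7 went from 1361 with the control to 2226 with the mimic. KRT8, a keratin, went from 171 to 728 FPKM (log2 ratio 1.90) and KRT19, another, from 172 to 351 FPKM (0.88). KRT18 had 0.34, CDH1 0.024 and MUC1 0.017, whereas EPCAM had -0.21 and KRT7 -0.32. Of the 7, 5 were above 0 (4 on log2(FPKM + 1)), with a median of 0.024. In HEC-1-A their sum went from 1024 to 810 FPKM, 5 of 7 were below 0, and KRT8 and KRT19 had -0.27 and -0.34. Their part in the members' ratios was not tested.

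In HEC-1-A, PPP1R15A had 689 CPM in the control and 971 CPM in the mimic library, 1.41-fold higher (log2 ratio 0.50, interval 0.47 to 0.52). It ranked 635 from the highest ratio among 12981 measured genes. No member was at least 2-fold apart (0 of 6), where 1.11% of measured genes were, 0.871% higher and 0.239% lower. EIF2AK2 was at 134 and 117 CPM (-0.19, interval -0.25 to -0.14) and PPP1R15B at 195 and 208 CPM (0.093, interval 0.047 to 0.14). The direction of all 3 was the opposite of that in RL-95-2. EIF2AK3 (24.1 and 26.4 CPM, log2 ratio 0.13, interval -0.0024 to 0.26) and EIF2AK4 (54.2 and 55.7 CPM, 0.039, interval -0.049 to 0.13) were not separated from 0 at this depth. EIF2AK1 was at 166 and 160 CPM (-0.055, interval -0.11 to -0.0038).

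**Figure D4:**
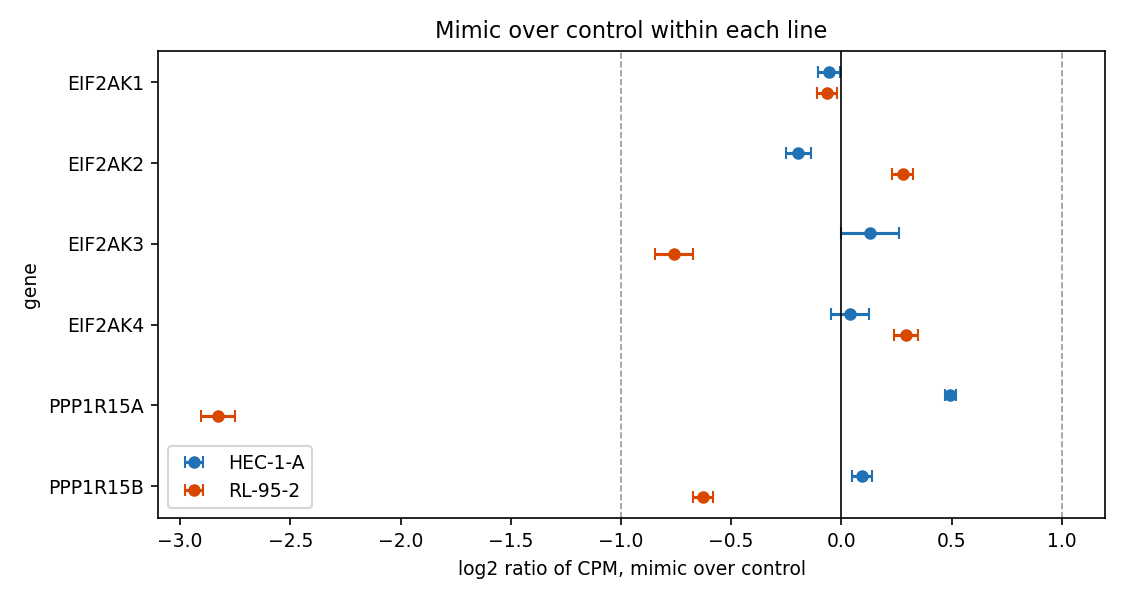
Log2 ratio of TMM-scaled CPM, mimic over control, for each gene in each line, with exact 95% counting intervals (dashed lines, 2-fold). PPP1R15A lies at -2.83 in RL-95-2 and at 0.50 in HEC-1-A, and the other members lie inside the 2-fold lines.

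Over both lines, with the line as a block, edgeR's quasi-likelihood test called 0 of 6 members and 0% of 15957 features between mimic and control. At an unadjusted p under 0.05 there were 167 features, 92 higher and 75 lower, and 0 members. DESeq2 called 2 features and limma-voom 0, again with no member. PPP1R15A had a log2 fold change of -1.16 (SE 0.81, n = 2 per transfection, edgeR adjusted p = 0.9999), negative in 1 of 2 lines. The other members had log2 fold changes from -0.32 (EIF2AK3, SE 0.29) to 0.17 (EIF2AK4, SE 0.23), each with an edgeR adjusted p of 0.9999. EIF2AK1 was below 0 and EIF2AK4 above 0 in both lines, although the sign of EIF2AK1 in RL-95-2 turned with total scaling and that of EIF2AK4 in HEC-1-A turned on log2(FPKM + 1), to -0.0019. The other 4 members had opposite signs in the lines, and the share of all genes with opposite signs was not counted. With 1 residual degree of freedom, a p that misses the threshold does not show that these genes were alike in both transfections.

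Further genes of the pathway were read from lists of 83 genes, all 83 of which were in the table. None of them passed over both lines in either direction (0 higher and 0 lower in each of 8 lists), so the following are ratios within a line. Over all measured genes the median log2 ratio was 0.017 in HEC-1-A, against 0.0012 in RL-95-2, and 53.6% and 50.1% of them were above 0. Between lines, where 18.3% of all features were called higher and 16.7% lower in RL-95-2, edgeR called 3 ATF4 branch genes higher and 3 lower of 20 in RL-95-2, 2 higher and 1 lower of 14 in the IRE1 and ATF6 branch, 3 higher and 5 lower of 15 interferon genes, and 0 higher and 2 lower of 12 heme genes. Of the 11 eIF2, eIF2B and PP1 catalytic genes 0 were called between lines, where 35.1% of all features were. Lists this short, set beside those shares, give no result of their own between lines.

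Of the 3 eIF2 subunit genes, the substrate EIF2S1, which encodes the alpha subunit, had a log2 ratio of 0.56 in RL-95-2 (19.7 and 31.6 FPKM) and -0.042 in HEC-1-A. EIF2S2 and EIF2S3, the beta and gamma subunits, had -0.39 and -0.36 in RL-95-2. All 5 eIF2B genes were above 0 in RL-95-2 (median 0.40), with EIF2B1 at 0.75, EIF2B5 at 0.67, EIF2B3 at 0.40, EIF2B4 at 0.12 and EIF2B2 at 0.036. In HEC-1-A 4 of 5 were above 0, with a median of 0.025 that turned to -0.0061 on log2(FPKM + 1). None of these 8 genes was at least 2-fold apart in either line, where 11.2% of measured genes were in RL-95-2 and 1.11% in HEC-1-A. For so few genes this count is no result about them. EIF2B1 and EIF2B2 share 15.6% and 23.6% of their exon bases with genes on the opposite strand, whose reads cannot be told apart without strand.

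The catalytic subunits of PP1, with which both regulatory subunits act, had no common direction in RL-95-2. PPP1CB had a log2 ratio of -0.98 (108 and 63.8 FPKM), PPP1CC 0.17 and PPP1CA 0.64. In HEC-1-A they had 0.20, 0.040 and 0.023. PPP1CA shares 26.9% of its exon bases with genes on the opposite strand.

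Of 10 regulators of the kinases, 6 were below 0 in RL-95-2 and 1 was at least 2-fold lower (6.52% of all measured genes were), with a median of -0.25. That gene was HSPA5, the endoplasmic reticulum chaperone BiP that binds the sensor domain of PERK, with 307 and 334 FPKM in the HEC-1-A and 599 and 250 FPKM in the RL-95-2 libraries. Its log2 ratio was -1.40 in RL-95-2 and 0.15 in HEC-1-A, the same signs as EIF2AK3, whose counting interval in HEC-1-A included 0. IMPACT, an inhibitor of GCN2 activation, had -0.45 in RL-95-2. TARBP2, a double-stranded RNA binding protein that inhibits PKR, had 0.69, and GCN1, which activates GCN2 at the ribosome, 0.20. DNAJC3, an inhibitor of PERK and PKR, had -0.39, and it was higher in RL-95-2 than in HEC-1-A by edgeR (log2 fold change 1.13, adjusted p = 0.0136). DNAJC3 was the single gene of this list called between lines.

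Genes of the ATF4 branch lay on the same side as PPP1R15A in RL-95-2. All 20 of 20 measured were below 0 and 19 were at least 2-fold lower, with a median of -1.44, where 6.52% of all measured genes were at least 2-fold lower. ATF3, a transcription factor that stress induces, had a log2 ratio of -4.95 and DDIT4, an mTOR inhibitor, -3.23. DDIT3, the transcription factor CHOP that activates PPP1R15A, had 128 FPKM with the control and 15.9 FPKM with the mimic (-3.10). ATF4 mRNA, at 206 and 128 FPKM, had -0.79 and PSAT1, an enzyme of serine synthesis, -1.01, the 2 highest of the list. With scaling by library total 14 of 20 were at least 2-fold lower, and all 20 stayed below 0. In HEC-1-A, 13 of 19 were above 0 with a median of 0.16, ATF3 at 0.61, DDIT3 at 0.25 and ATF4 at -0.043. DDIT3 and DDIT4 share 31.6% and 41.2% of their exon bases with genes on the opposite strand. These genes had been listed with their earlier results known, and the list is not independent evidence of its direction.

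Genes of the other arms of the unfolded protein response, run by IRE1 and ATF6, lay on both sides of 0. In RL-95-2, 10 of 14 genes were below 0 and 4 were at least 2-fold lower, where 6.52% of all measured genes were, with a median of -0.72. ERN1, which encodes IRE1, had -1.76 and XBP1, its mRNA substrate, -1.66. SDF2L1 and CALR, a chaperone cofactor and a chaperone of the endoplasmic reticulum, had 0.74 and 0.66. In HEC-1-A, 12 of 14 were above 0 with a median of 0.16.

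Of 16 interferon and double-stranded RNA genes, those measured were mostly above 0 in both lines, 14 of 14 in HEC-1-A (median 0.24) and 12 of 15 in RL-95-2 (median 0.36). EIF2AK2, which belongs to the same class of inducible genes, was at -0.19 and 0.28. In RL-95-2, OAS3, a sensor that activates RNase L, had 1.64 and IFIT1, an antiviral RNA-binding protein, 1.54, while MX1 and OASL had -0.38 and -0.36. At least 2-fold higher were 4 of 15 (1 on log2(FPKM + 1)), against 4.71% of measured genes. ISRE matches were found in 7 of the 11 promoter windows found for genes of this list, as in EIF2AK2.

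Of 12 heme genes, relevant to EIF2AK1, 9 were above 0 in RL-95-2 (median 0.31), where 50.1% of all measured genes were. The synthesis enzymes ALAD and CPOX had 1.01 and 1.001, and PPOX -0.62. HMOX1, which degrades heme, had -2.47 in RL-95-2 (78.4 and 15.5 FPKM) and 1.35 in HEC-1-A (7.65 and 19.1 FPKM). In HEC-1-A 6 were above and 6 below 0, with a median of -0.015.

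**Figure D5:**
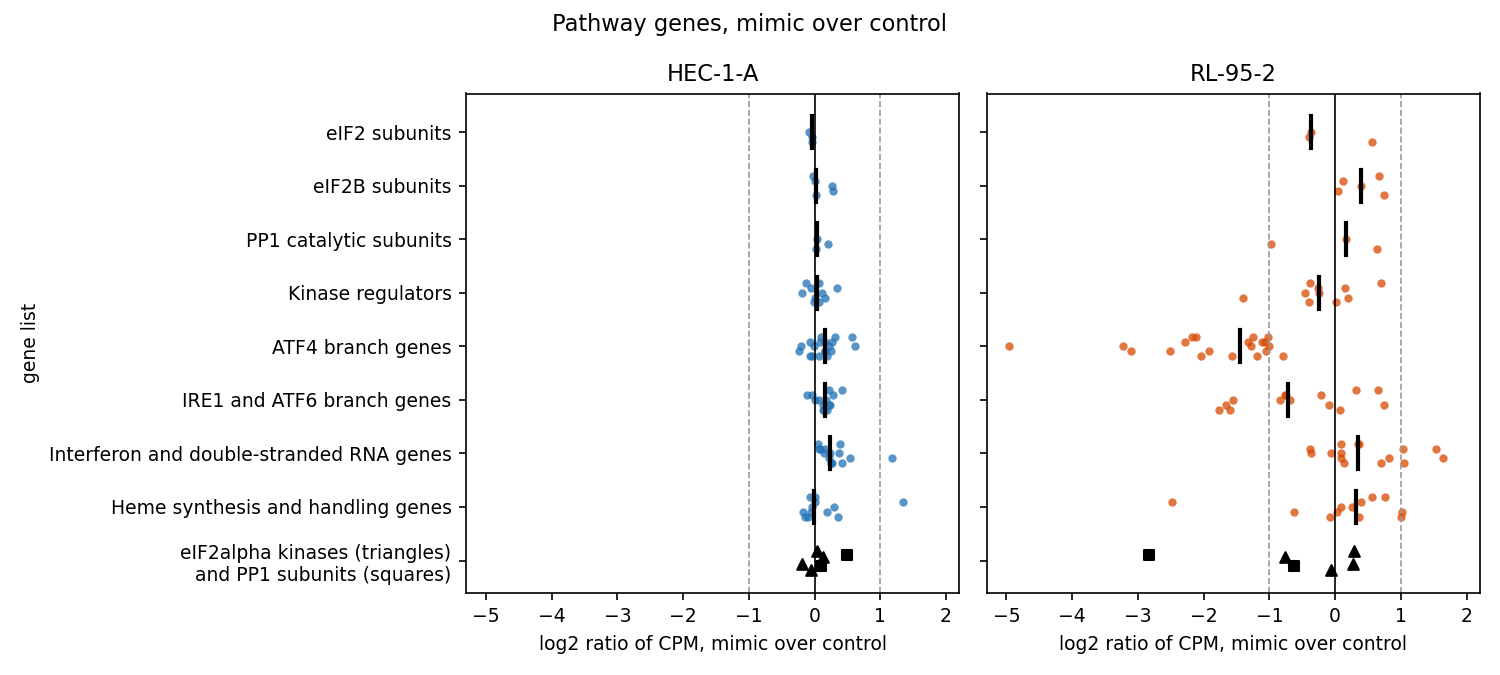
Log2 ratios of CPM, mimic over control, for measured genes of 8 pathway lists in each line, with list medians as black bars, the members as triangles and squares, and dashed lines at 2-fold. All 20 ATF4 branch genes lie below 0 in RL-95-2, and 13 of 19 lie above 0 in HEC-1-A.

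The genes of most similar pattern were taken by the Euclidean distance between log2 CPM profiles centred over the 4 libraries, among 11440 genes averaging 5 CPM or more. Nearest to PPP1R15A were DUSP5, a phosphatase of MAP kinases (distance 0.34), KRT80, a keratin (0.39), and TSC22D3 (0.47). DUSP5 stood at 244 and 271 FPKM in the HEC-1-A control and mimic libraries and at 81.8 and 14.4 FPKM in those of RL-95-2. The 3 genes nearest to each other member lay much closer to it, at distances of at most 0.079. VPS37A, ATP6V1E2 and JMJD7 were nearest to EIF2AK3, and RTKN, PAAF1 and BZW2 to EIF2AK4. Nearest to EIF2AK1 were LRTOMT, AAED1 and CHPT1, to EIF2AK2 TP53BP1, TAB1 and SF3B2, and to PPP1R15B LZTFL1, TICAM1 and AKAP10. With 4 libraries, and flat profiles for several members, many genes lie near by such a measure.

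The positions of the members in GENCODE release 29 (GRCh38) bear on how their reads could be assigned. PPP1R15A (chromosome 19, 48872392 to 48876057), PPP1R15B (chromosome 1, 204403387 to 204411791) and EIF2AK4 (chromosome 15, 39934146 to 40035591) share no exon base with another gene. EIF2AK3 (chromosome 2, 88556741 to 88627576) shares 15.1% of its exon bases with antisense transcripts. EIF2AK1 (chromosome 7, 6022244 to 6059230) shares 9.59% with AIMP2 on the opposite strand, and EIF2AK2 (chromosome 2, 37099210 to 37157065) shares 4.06%. The part of these overlaps in the levels was not tested.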

How the data were processed

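Poly(A) RNA of 4 libraries was analysed. The deposited tables hold unnormalized counts and FPKM for each gene. The submitters' processing notes name CASAVA, HISAT2 and GRCh38 (hg38). The sources used here do not state the counter, annotation, strand setting or FPKM tool. Groups came from the labels, and mimic and control libraries were paired by cell line. The labels do not say that libraries came from separate cultures, and each line counts as a replicate of a transfection. A p-value reflects only how these samples spread, which may in part be technical. No group had a repeat library. In the model of line and transfection, a gene's own spread is therefore how far its mimic to control ratio differed between the lines. The comparison of the lines and the SE rest on the same spread, which does not measure variation between repeat libraries.

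The count test was that of edgeR 4.0.16 under R 4.3.3 (TMM, low-count filter by transfection, quasi-likelihood F test, FDR 0.05) in a model of line and transfection with 1 residual degree of freedom. The SE is the fold change over the root of F. Within a line, log2 ratios of TMM-scaled CPM (prior count of 2) carry exact 95% intervals from the 2 counts, and genes averaging 1 CPM or more count as measured. Alternatives were DESeq2 1.42.0, limma 3.58.1 (voom, or log2(FPKM + 1) and log2(FPKM + 0.1)), RLE or total scaling, other filters and prior counts, no block, and libraries left out.

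Named were the 6 members, the 2 highest and 2 lowest ratios in RL-95-2 of each list (all of a list of 5 or fewer), ATF4, DDIT3, HSPA5 and DNAJC3, and the 3 nearest genes per member. KRT8, KRT19, KRT18, KRT7, EPCAM, CDH1, MUC1, CD68, COL1A1, CDH5, PAX8, SOX17, PGR and ESR1 were named after their values were seen. The members and lists were chosen with earlier results of these data known.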

Additional observations from a re-analysis of the deposited data

Results flagged for a closer look

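For 3 members the mimic and control libraries stood in opposite order in the 2 lines, with counting intervals on opposite sides of 0. For PPP1R15A the log2 ratio was 0.50 in HEC-1-A but -2.83 in RL-95-2, a difference of -3.32. PPP1R15B had 0.093 and -0.63, a difference of -0.72. EIF2AK2 had -0.19 and 0.28, a difference of 0.47. With 1 pair of libraries per line, the difference between lines was not tested for any of them.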

How the results depend on the processing

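Calls between lines kept their side of the threshold for all 6 members under the 8 alternative fits, with adjusted p of 0.0196 to 0.0442 for EIF2AK3, 1.2e-05 to 0.00988 for EIF2AK4 and 9.1e-05 to 0.0320 for PPP1R15A. Features called fell to 3344 in place of 5594 with at least 1 CPM in all 4 libraries, where fewer features were tested. Between control libraries alone PPP1R15B had 0.25 and between mimic libraries alone -0.47, and log2 ratios ranged over -1.51 to -4.83 for PPP1R15A, 0.57 to 1.46 for EIF2AK3, 1.10 to 1.36 for EIF2AK4, 0.18 to 0.65 for EIF2AK2 and 0.19 to 0.20 for EIF2AK1. Over both lines no member passed under any of 9 alternative fits. With no replicate block for the line, 0 features were called and the PPP1R15A fold change turned to 0.11, the single member to change sign. That fit pools the libraries of both lines within a transfection. PPP1R15A had 689 and 971 CPM in the HEC-1-A control and mimic libraries, against 242 and 34.1 CPM in those of RL-95-2. The part of this level difference in the change of sign was not tested. DESeq2 called 2 features, PPAN-P2RY11 and SCHIP1-1, and limma on log2(FPKM + 0.1) called 3, these and RP11-762I7.5, named after their values were seen. Each had 0 counts in both libraries of 1 transfection. Leaving out either line gave -2.83 to 0.50 for PPP1R15A, -0.76 to 0.13 for EIF2AK3, -0.63 to 0.093 for PPP1R15B, -0.19 to 0.28 for EIF2AK2, 0.039 to 0.29 for EIF2AK4 and -0.066 to -0.055 for EIF2AK1. No count of called features is possible then, since no residual degree of freedom is left. Within HEC-1-A, EIF2AK4 turned to -0.0019 on log2(FPKM + 1) and -0.0020 on log2(FPKM + 0.1). Genes at least 2-fold apart were 26 on log2(FPKM + 1), 13 in each direction, and 29 at a mean of at least 5 CPM, in place of 144. Within RL-95-2, EIF2AK1 turned to 0.063 with scaling by library total, 0.072 on log2(FPKM + 1) and 0.073 on log2(FPKM + 0.1). Genes at least 2-fold apart were 727 on log2(FPKM + 1) and 941 at a mean of at least 5 CPM, in place of 1476. PPP1R15A ranged from -2.85 to -2.60 in RL-95-2 and 0.46 to 0.50 in HEC-1-A under these settings.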
